A study of Mus musculus with 8 samples.

Results

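The endoplasmic reticulum (ER) chaperones and cochaperones examined here were 10 genes chosen by symbol: Hspa5, Hsp90b1, Hyou1, Calr, Canx, Dnajb9, Dnajb11, Dnajc3, Sdf2l1 and Manf. They are 10 of the 48526 genes counted, each was found under its own Ensembl identifier, and all 10 were among the 15580 genes with enough counts to be tested. They were measured by RNA-seq in mouse pituitary neuro-intermediate lobes, where melanotropes make the hormone precursor pro-opiomelanocortin. There were 8 libraries, and each was made from 5 pooled lobes of C57B6 males aged 3 months.

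The 4 groups held 2 libraries each. By the labels, WT lobes carried no transgene, POMC_ACreb3l2 Tg lobes (ACreb3l2) carried ACreb3l2, POMC_AXBP1 Tg lobes (AXBP1) carried AXBP1, and the double Tg lobes (ACreb3l2/AXBP1) carried both. ACreb3l2 and AXBP1 are dominant-negative proteins in which an acidic extension stands before the leucine zipper of Creb3l2 or XBP1, so that the endogenous factor is held in a dimer that cannot bind DNA. Both are driven by the rat POMC promoter, which is active in melanotropes. The study kept 2 lines per transgene, reports that they behaved alike and shows results for a single line of each. Each transgene contains part of the coding sequence of its factor, so its reads could add to the counts of Creb3l2 or Xbp1. Neither gene had a higher count that passed in the lobes with its transgene, so these counts do not by themselves show the transgenes, and the groups rest on the labels. The study quantified the transgene transcripts separately by RT-qPCR. It chose lines in which their ratio to the endogenous transcript was above 5. The labels name melanotropes as the cell type, but the lobe was not sorted. All 5 melanotrope markers examined were detected, and so were the markers of pituicytes, endothelium, macrophages, fibroblasts, the anterior lobe and blood. The comparisons ask whether transcripts of the ER folding machinery need Creb3l2, XBP1 or the pair of them.

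Proteins that enter the secretory pathway fold in the ER lumen with the help of these chaperones. BiP, the product of Hspa5, is an Hsp70 that binds unfolded chains in cycles of ATP hydrolysis, which J-domain proteins start and nucleotide exchange factors end. Glycoproteins are held instead by the lectins calnexin and calreticulin until they have folded. When unfolded chains accumulate, the unfolded protein response raises transcription of these genes through ATF6 and XBP1, which act on ER stress elements in their promoters, and a heavily secreting cell needs much of this machinery even without stress.

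The promoters are shown because both transgenes are aimed at DNA-binding factors. RefSeq promoter windows, which run from 250 bases before to 50 bases after a transcript start, were at hand for 8 of the 10 genes (build GRCm38.p6). Hyou1 and Manf had no entry. The ER stress element (ERSE) was searched on both strands as CCAAT and CCACG with 9 bases between them, and it lay in 5 of the 8 windows, against 0.119% of all 32851 windows. The 5 genes were Hspa5, Hsp90b1, Calr, Canx and Dnajc3, and Hsp90b1 held it at 2 positions in opposite orientations. Among the other ER folding factors counted further below 7.14% of windows held it, and among the cytosolic and mitochondrial chaperones 0.0%. The element is known from promoters of ER chaperones, so finding it here describes these windows and tests nothing. ERSE-II, searched on both strands as ATTGG and CCACG with 1 base between them, lay in Dnajb11 alone of the 8 (0.0365% of all windows). In the stretches below, read on the gene's strand, capitals mark the paired parts of the ERSE or ERSE-II, and 30 bases are shown on either side where the window allows.

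Hspa5 (chr2:34771995-34772073, plus strand): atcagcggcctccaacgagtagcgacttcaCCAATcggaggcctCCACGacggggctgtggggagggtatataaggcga
Hsp90b1 (chr10:86705503-86705686, minus strand): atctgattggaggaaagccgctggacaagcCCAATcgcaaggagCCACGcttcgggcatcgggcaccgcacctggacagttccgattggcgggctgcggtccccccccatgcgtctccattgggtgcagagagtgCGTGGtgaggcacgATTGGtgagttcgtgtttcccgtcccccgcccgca
Calr (chr8:84847045-84847123, minus strand): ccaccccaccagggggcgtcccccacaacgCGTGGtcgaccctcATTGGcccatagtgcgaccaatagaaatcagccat
Canx (chr11:50325770-50325848, minus strand): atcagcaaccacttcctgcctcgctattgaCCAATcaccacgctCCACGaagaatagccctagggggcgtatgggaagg
Dnajc3 (chr14:118937797-118937875, plus strand): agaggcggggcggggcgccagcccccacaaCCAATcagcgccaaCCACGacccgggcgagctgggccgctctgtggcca
Dnajb11 (chr16:22857822-22857892, plus strand): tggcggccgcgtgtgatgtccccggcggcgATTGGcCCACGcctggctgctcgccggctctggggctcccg

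The whole window of Hspa5 (chr2:34771840-34772139, plus strand) places the element in its surroundings, with the same capitals.

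Hspa5 promoter: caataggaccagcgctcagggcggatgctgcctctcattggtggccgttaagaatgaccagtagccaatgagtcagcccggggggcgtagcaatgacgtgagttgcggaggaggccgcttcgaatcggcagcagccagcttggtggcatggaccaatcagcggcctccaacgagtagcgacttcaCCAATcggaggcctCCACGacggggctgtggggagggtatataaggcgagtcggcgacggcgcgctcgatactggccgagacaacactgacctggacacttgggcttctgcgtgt

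The ACGT core, which belongs to known binding sites of both factors, was searched as those 4 letters and lay in 6 of the 8 windows, against 30.9% of all windows. It was in Hspa5, Calr, Canx, Dnajb9, Dnajb11 and Dnajc3. Among the other ER folding factors counted further below it lay in 57.1% of windows, and among the cytosolic and mitochondrial chaperones in 48.3%. An unfolded protein response element, searched on both strands as TGACGTGG, lay in none of the 8 windows and in 0.676% of all windows. A cAMP response element, TGACGTCA, lay in none of the 8 windows and in 1.79% of all windows. Both of these contain the ACGT core. The Sdf2l1 window held none of the motifs searched. These matches describe the letters in a window, and binding was not measured here.

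**Figure D1:**
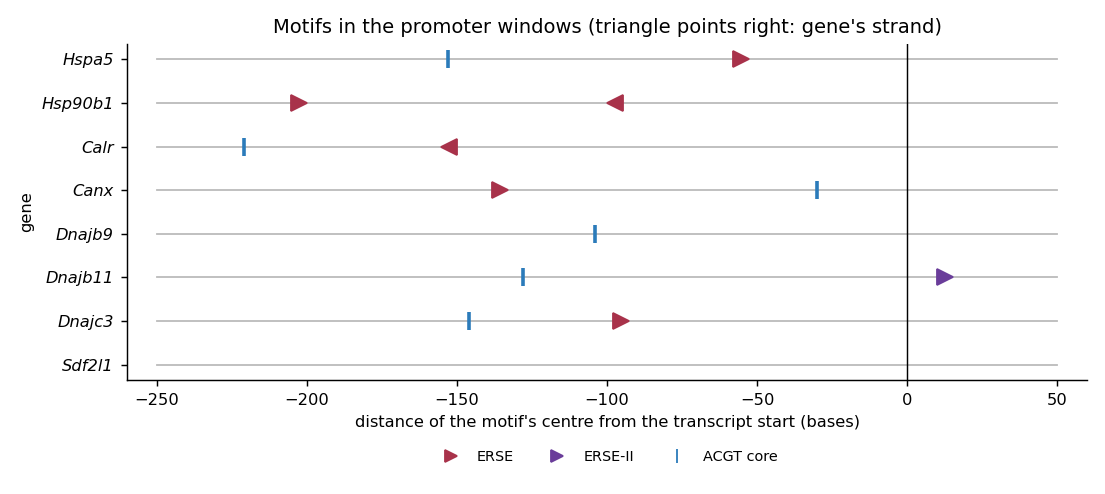
Positions of the motifs in the 8 promoter windows, with the distance from the transcript start in bases on the horizontal axis and 1 line per gene. Triangles stand for ERSE and ERSE-II and point in the motif's direction, and bars stand for the ACGT core. The ERSE of Hspa5 begins 65 bases before the start, that of Canx 145 and that of Dnajc3 105, and the ERSE-II of Dnajb11 lies after the start.

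Levels per length were read from FPKM values within WT. Hspa5 was the highest of the 10 at 901.0 and 991.5 FPKM in the WT libraries, rank 27 of the 15580 tested genes. Calr followed with 725 ± 134 FPKM (SD, n = 2, as for all means here) at rank 48, Hsp90b1 with 429 ± 7.64 at rank 103 and Canx with 333 ± 27.4 at rank 142. The principal chaperones of the lumen were thus the most abundant members. Manf (238 ± 37.4 FPKM) and Hyou1 (201 ± 44.4) came next, and their WT libraries overlapped, so their order was not resolved. The J-domain proteins and Sdf2l1 were far lower, with Dnajc3 at 69.2 ± 0.398 FPKM, Sdf2l1 at 56.3 ± 15.1, Dnajb9 at 50.6 ± 0.332 and Dnajb11 at 46.7 ± 4.04, the last at rank 1570. The WT libraries of Sdf2l1 overlapped those of Dnajb9. The other neighbours in this order did not overlap in WT. The order was the same in ACreb3l2 and AXBP1, and in ACreb3l2/AXBP1 only Dnajb9 and Dnajb11 exchanged places, at 34.5 ± 1.29 and 34.5 ± 0.874 FPKM. When counts were divided by the annotated exon length instead, Manf moved from the fifth to the eighth place in WT, and Hspa5 (17124 and 19431 normalised counts per kb) overlapped Calr (15452 and 19989), so their order was not resolved on that scale.

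**Figure D2:**
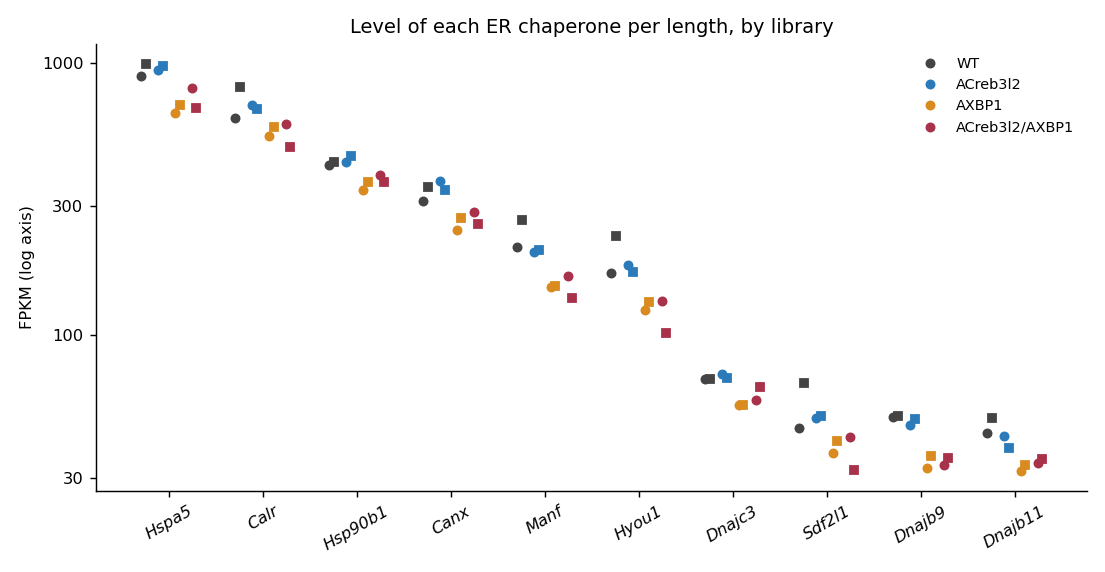
FPKM of each gene on a log axis, in order of the WT mean, with 1 point per library (circles replicate 1, squares replicate 2) coloured by group. Hspa5 lies between 655.2 and 991.5 FPKM and Dnajb11 between 31.85 and 49.55 over the 8 libraries.

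Together the 10 genes took 0.744% and 0.802% of the counts of the WT libraries, 0.766% and 0.83% for ACreb3l2, 0.673% and 0.692% for AXBP1, and 0.749% and 0.638% for the double Tg libraries. Hspa5 alone supplied between 28.2% and 30.5% of the members' counts in every library, so the makeup of the group by its main member varied little while its total moved. Total counts per library ran from 28256086 to 37988912, and the least counted member, Sdf2l1, still had at least 1155 normalised counts in each library.

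Against WT, all 10 genes were lower in ACreb3l2/AXBP1 and all 10 were lower in AXBP1, by modest amounts, whereas in ACreb3l2 their changes lay on both sides of 0. A gene is said to have fallen or risen only where edgeR's quasi-likelihood test, adjusted by Benjamini and Hochberg over the 15580 genes, gave a p under 0.05. By that rule 3 of the 10 fell in ACreb3l2/AXBP1, namely Dnajb9, Dnajb11 and Manf, while 10.1% of all genes were called in this comparison and 6.99% were called lower. None of the 10 passed in AXBP1 (0.0% of all genes were called) or in ACreb3l2 (3.04% of all genes). The median log2 change of the 10 was -0.39 in ACreb3l2/AXBP1, -0.32 in AXBP1 and -0.10 in ACreb3l2, and the median over all tested genes was 0.01, 0.00 and 0.01 in that order. These medians moved with single libraries. Without WT replicate 2 they were -0.23, -0.17 and 0.06 in the same order, the last with its sign turned, and without WT replicate 1 they were -0.53, -0.41 and -0.21. The median for the double Tg lobes was -0.26 without their replicate 2.

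The WT libraries themselves differed, and this touches every comparison with WT. All 10 genes were lower in WT replicate 1 than in WT replicate 2, with means of -0.12 and 0.12 on the log2 scale around the WT mean. ACreb3l2/AXBP1 replicate 2 had the lowest mean of the 8 libraries at -0.55, against -0.26 in replicate 1 of that group, -0.33 and -0.26 for AXBP1, and -0.13 and -0.05 for ACreb3l2. All 10 genes lay below the WT mean in each of the 4 libraries that carried AXBP1. In a lobe that was not sorted, fewer melanotropes and less RNA per melanotrope cannot be told apart. The 5 melanotrope markers summed to between 111228 and 166248 CPM, which are counts scaled to library size, in WT, between 109830 and 122971 for ACreb3l2, between 102489 and 119849 for AXBP1, and between 65763 and 89713 for the double Tg lobes. Both double Tg libraries lay below all others in this sum. The median log2 change of the melanotrope markers was -0.25 for ACreb3l2, -0.24 for AXBP1 and -0.66 for the double Tg lobes. All 5 were lower in ACreb3l2 and in the double Tg lobes, and 4 were lower in AXBP1. Endothelial markers summed to between 132 and 164 CPM in WT, between 107 and 187 for ACreb3l2, between 175 and 223 for AXBP1 and between 189 and 223 for the double Tg lobes, with median log2 changes of 0.42 in AXBP1 and 0.51 in ACreb3l2/AXBP1. Fibroblast and pericyte markers summed to between 728 and 917 CPM in WT, between 713 and 915 for ACreb3l2, between 946 and 1075 for AXBP1 and between 914 and 1033 for the double Tg lobes. The median log2 change of the pituicyte markers was 0.48 for ACreb3l2, 0.18 for AXBP1 and 0.45 for the double Tg lobes. Anterior lobe markers summed to between 4788 and 7104 CPM in WT, between 3842 and 5062 for ACreb3l2, between 2479 and 2593 for AXBP1 and between 3267 and 6365 for the double Tg lobes. No marker on any of the 8 lists was at 0 in every library, and edgeR called 1 melanotrope marker and 1 pituicyte marker in ACreb3l2/AXBP1. The part of these shifts in the chaperone values was not tested. Nothing in the labels says whether the pools of a group were independent litters, so the p-values rest on the spread between pools. edgeR estimated that spread over all 8 libraries together and with help from other genes, not from the compared groups alone.

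**Figure D3:**
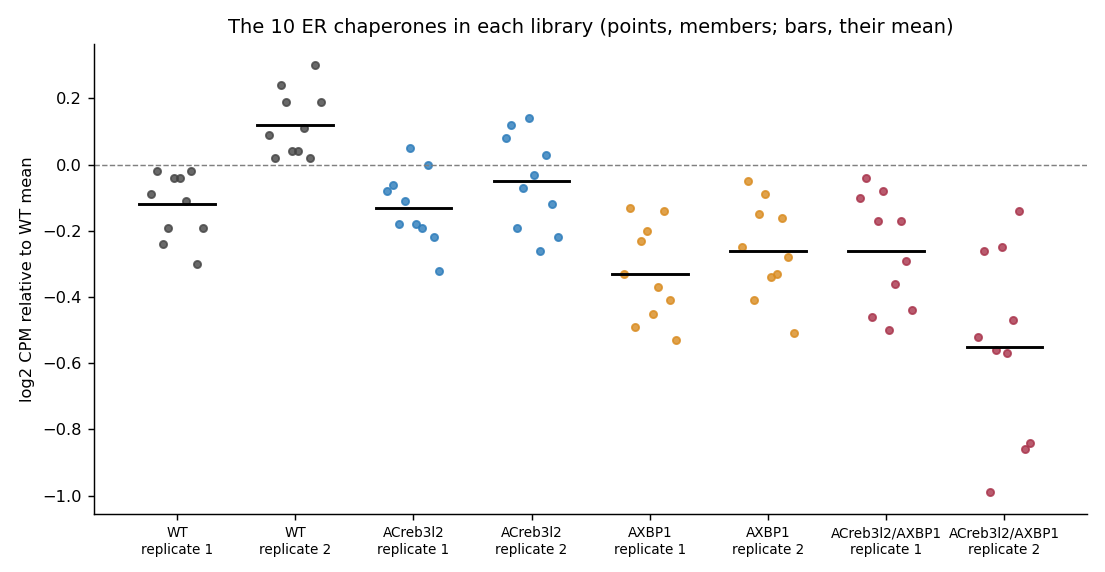
The log2 CPM of each of the 10 genes relative to its WT mean (vertical axis) in each of the 8 libraries, with the mean over the genes as a bar. The bars run from 0.12 in WT replicate 2 to -0.55 in ACreb3l2/AXBP1 replicate 2, and every point of the AXBP1 and ACreb3l2/AXBP1 libraries lies below 0.

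Hspa5 (ENSMUSG00000026864, mm10 chr2:34771970-34777547, plus strand) encodes BiP, the ER Hsp70. Its normalised counts were 72417 and 82172 for WT, 73221 and 81436 for ACreb3l2, 61407 and 64824 for AXBP1 and 72074 and 53950 for the double Tg lobes. Both AXBP1 libraries lay below both WT libraries, the ACreb3l2 libraries overlapped WT, and the double Tg libraries lay far apart with replicate 1 just under WT replicate 1. The log2 change was 0.00 for ACreb3l2 (95% interval -0.32 to 0.32), -0.29 for AXBP1 (-0.61 to 0.03) and -0.29 for the double Tg lobes (-0.62 to 0.03), and none passed (edgeR adjusted p = 0.999, 0.527 and 0.202). The double Tg value rested on single libraries, as it was -0.52 without ACreb3l2/AXBP1 replicate 1, where it passed (edgeR adjusted p = 0.0376), and -0.11 without replicate 2 (edgeR adjusted p = 0.74).

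Of the 3 J-domain partners of BiP among the 10 genes, Dnajb9 had the largest estimated change against WT in AXBP1 and in ACreb3l2/AXBP1, and Dnajb11 in ACreb3l2. It encodes ERdj4, which helps BiP hold IRE1 inactive and takes part in ER-associated degradation. Its normalised counts were 3419 and 3595 for WT, 3099 and 3429 for ACreb3l2, 2565 and 2765 for AXBP1 and 2482 and 2353 for the double Tg lobes. The 4 AXBP1-bearing libraries lay below all 4 others, and the double Tg libraries lay below the AXBP1 libraries. Dnajb9 fell by 0.54 on the log2 scale in ACreb3l2/AXBP1, to 0.689 of the WT level (SE 0.0859, edgeR adjusted p = 0.00676). Its change was -0.40 for AXBP1 (SE 0.0859) and -0.10 for ACreb3l2 (SE 0.0855), with edgeR adjusted p = 0.399 and 0.589. It passed in ACreb3l2/AXBP1 under 14 of 15 alternative settings and missed without ACreb3l2/AXBP1 replicate 2 (-0.51, edgeR adjusted p = 0.0642). The gene lies at chr12:44205559-44210326 on the minus strand and shares 14 exon bases with the antisense Mir5627, which had 5 counts in all.

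Dnajb11 (ERdj3, chr16:22857845-22879634, plus strand) binds substrates in the lumen and passes them to BiP. It had 3022 and 3516 normalised counts for WT, 2855 and 2718 for ACreb3l2, 2524 and 2592 for AXBP1 and 2533 and 2360 for the double Tg lobes. All 6 transgenic libraries lay below both WT libraries. Dnajb11 fell by 0.42 in log2 counts in ACreb3l2/AXBP1, to 0.749 of WT (SE 0.0916, edgeR adjusted p = 0.0219). The change of -0.35 in AXBP1 (edgeR adjusted p = 0.474) and that of -0.23 in ACreb3l2 (edgeR adjusted p = 0.24) did not pass. Over the 15 alternative settings the first ran from -0.51 to -0.24 and the second from -0.34 to -0.12. The call in ACreb3l2/AXBP1 held under 9 of 15 settings and was lost without WT replicate 2 (-0.31, edgeR adjusted p = 0.127) and without ACreb3l2/AXBP1 replicate 2 (-0.38, edgeR adjusted p = 0.168), and narrowly without either AXBP1 library.

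Dnajc3 (chr14:118937976-118981697, plus strand) encodes p58IPK, a luminal cochaperone known as an inhibitor of PERK. Its normalised counts were 13657 and 13992 for WT, 13856 and 14118 for ACreb3l2, 12541 and 12370 for AXBP1 and 12311 and 12527 for the double Tg lobes. The 2 libraries of each group were close, and the 4 AXBP1-bearing libraries lay below the other 4. The differences were small, with a log2 change of 0.02 for ACreb3l2 (95% interval -0.16 to 0.19), -0.15 for AXBP1 (-0.32 to 0.02) and -0.15 for the double Tg lobes (-0.33 to 0.02), and none passed (edgeR adjusted p = 0.939, 0.539 and 0.215).

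Sdf2l1 (chr16:17130138-17132383, minus strand), a stabilising component of the complex of BiP with ERdj3, had 1706 and 2593 normalised counts for WT, 1806 and 1938 for ACreb3l2, 1582 and 1728 for AXBP1 and 1719 and 1155 for the double Tg lobes. WT replicate 1 lay within the range of the transgenic libraries. The log2 change in ACreb3l2/AXBP1 was -0.58 with an SE of 0.235, and it did not pass (edgeR adjusted p = 0.155). Under 4 of the 15 alternative settings it passed, DESeq2 among them (adjusted p = 0.0199). It was -0.85 without WT replicate 1 (edgeR adjusted p = 0.0429) and -0.89 without ACreb3l2/AXBP1 replicate 1 (edgeR adjusted p = 0.0481), which both passed, and -0.25 without WT replicate 2 and -0.33 without ACreb3l2/AXBP1 replicate 2, which did not.

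Hyou1 (chr9:44379490-44392369, plus strand) encodes Grp170, a nucleotide exchange factor of BiP. Its normalised counts were 26544 and 37202 for WT, 27750 and 27628 for ACreb3l2, 22450 and 23571 for AXBP1 and 22820 and 15821 for the double Tg lobes. The 4 AXBP1-bearing libraries lay below both WT libraries, which differed widely. Its log2 change in ACreb3l2/AXBP1 was -0.72, the largest estimate among the 10, with an SE of 0.193 and an edgeR adjusted p of 0.0511, just short of the threshold. Under 5 of the 15 alternative settings it passed, among them those without WT replicate 1 (-0.95, edgeR adjusted p = 0.0187) and without ACreb3l2/AXBP1 replicate 1 (-1.01, edgeR adjusted p = 0.0142). It shrank to -0.46 without WT replicate 2 (edgeR adjusted p = 0.239) and to -0.49 without ACreb3l2/AXBP1 replicate 2 (edgeR adjusted p = 0.262).

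Manf, a secreted and ER-resident protein that binds BiP and is known as a neurotrophic factor, had 5924 and 7683 normalised counts for WT, 5420 and 5777 for ACreb3l2, 4686 and 4740 for AXBP1 and 4979 and 3761 for the double Tg lobes. Every transgenic library lay below both WT libraries. Manf fell by 0.64 on the log2 scale in ACreb3l2/AXBP1, to 0.642 of WT (SE 0.15, edgeR adjusted p = 0.0322). Its change was -0.53 for AXBP1 and -0.28 for ACreb3l2, with edgeR adjusted p = 0.474 and 0.388. Without WT replicate 2 these changes were -0.33 and -0.08, and without WT replicate 1 the second was -0.46. The call held under 9 of 15 settings. It was lost without WT replicate 2 (-0.44, edgeR adjusted p = 0.161) and without ACreb3l2/AXBP1 replicate 2 (-0.46, edgeR adjusted p = 0.193). The value is uncertain, because Manf (chr9:106838312-106891979, minus strand) shares 146 exon bases with Dcaf1 and 166 with 4930524O07Rik on the opposite strand and 14 with Rbm15b on its own, and it is not stated whether counting used strand.

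Hsp90b1 (chr10:86690209-86705509, minus strand) encodes Grp94, the ER Hsp90. It had 38258 and 39392 normalised counts for WT, 37315 and 42133 for ACreb3l2, 35406 and 37408 for AXBP1 and 37779 and 32429 for the double Tg lobes. The groups lay close together, although both AXBP1 and both double Tg libraries were below both WT libraries. Its log2 change was -0.15 in ACreb3l2/AXBP1 (95% interval -0.39 to 0.10), -0.09 in AXBP1 (-0.34 to 0.15) and 0.03 in ACreb3l2 (-0.21 to 0.28), none of which passed (edgeR adjusted p = 0.395, 0.767 and 0.912). With scaling by library size alone, which put the median of all genes at 0.17 in this comparison, its change in ACreb3l2/AXBP1 was 0.01, and that of Dnajc3 was also 0.01. Hsp90b1 shares 415 exon bases with 1810014B01Rik on the opposite strand, which had 1613 counts over the 8 libraries beside its own 299144.

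The lectin chaperones did not pass in any comparison with WT. Calr (calreticulin, chr8:84841850-84846934, minus strand) had 44502 and 57569 normalised counts for WT, 47015 and 48329 for ACreb3l2, 43171 and 45642 for AXBP1 and 44986 and 34234 for the double Tg lobes. WT replicate 1 fell among the transgenic libraries, so no group lay clear of WT. The log2 change of Calr in ACreb3l2/AXBP1 was -0.37 (95% interval -0.71 to -0.03, edgeR adjusted p = 0.144), and it passed without ACreb3l2/AXBP1 replicate 1 (-0.58, edgeR adjusted p = 0.0434). Without WT replicate 2 it was -0.17, and without ACreb3l2/AXBP1 replicate 2 it was -0.19. Canx (calnexin, chr11:50293961-50325673, minus strand) had 35122 and 37369 normalised counts for WT, 37521 and 39921 for ACreb3l2, 31491 and 34103 for AXBP1 and 34359 and 30409 for the double Tg lobes. The ACreb3l2 libraries lay above both WT libraries and the 4 AXBP1-bearing libraries below them. The log2 change of Canx was 0.10 for ACreb3l2, -0.14 for AXBP1 and -0.16 for the double Tg lobes, with edgeR adjusted p = 0.692, 0.617 and 0.31 in that order.

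**Figure D4:**
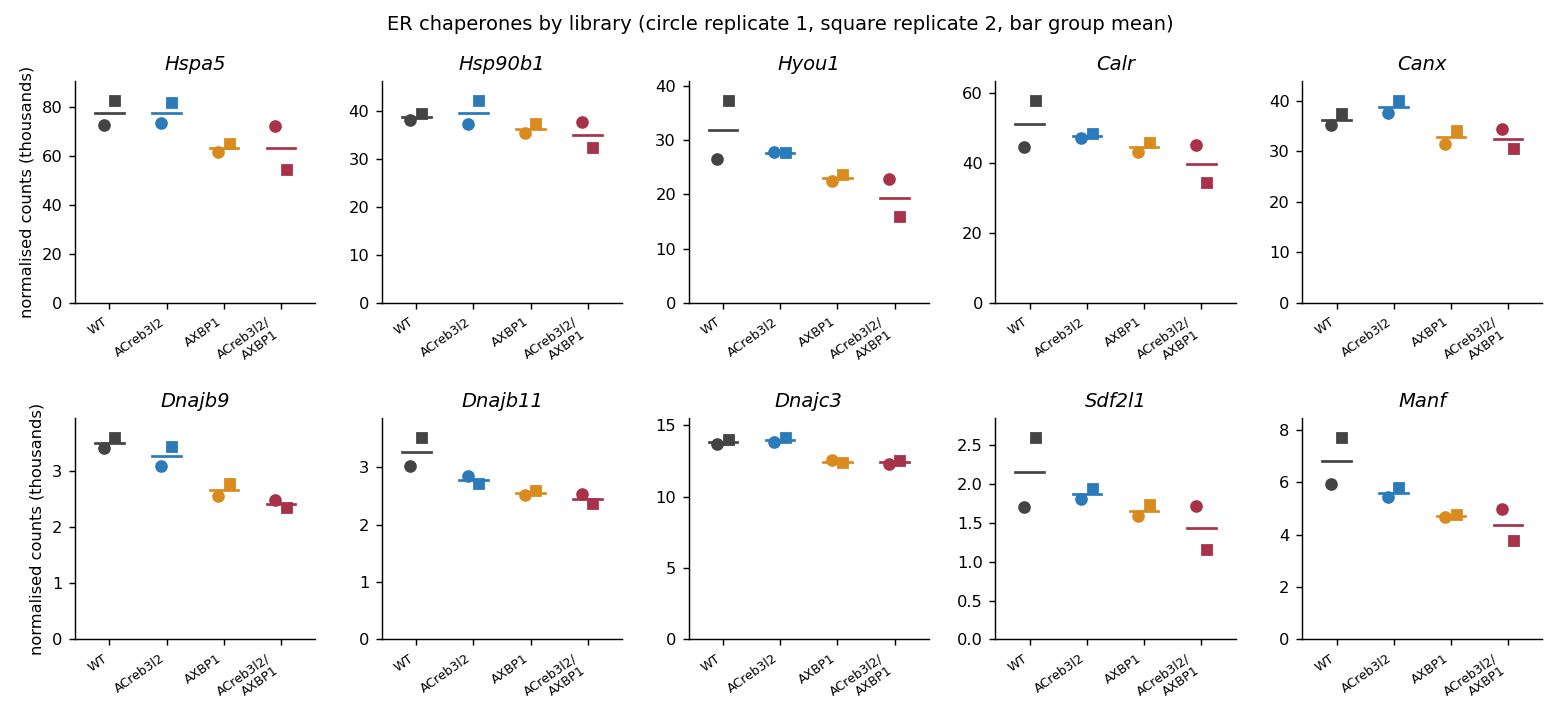
Normalised counts divided by 1000 (vertical axis, from 0) of each gene in the 4 groups, with 1 point per library (circles replicate 1, squares replicate 2) and the group mean as a bar. In 8 of the 10 panels both double Tg libraries and both AXBP1 libraries lie below both WT libraries, and Calr and Sdf2l1 are the panels where they do not.

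In AXBP1 the groups did not overlap, with AXBP1 below, for 8 of the 10 genes, against 23.8% of all tested genes. The exceptions were Calr and Sdf2l1. None of the 10 passed edgeR's test, as was so for all 15580 genes, of which 1554 had an unadjusted p under 0.05, 79 were called by DESeq2 and 10 by limma on FPKM. Among the 10, unadjusted edgeR p was under 0.05 for 4 genes, namely Dnajb9 (0.000961), Dnajb11 (0.00318), Manf (0.0064) and Hyou1 (0.0393). DESeq2 called 2 of the 10, Dnajb9 (adjusted p = 0.0464) and Manf (adjusted p = 0.0418), and limma on FPKM called none.

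In ACreb3l2 6 of the 10 genes had a negative log2 change and 4 a positive one, from -0.28 for Manf to 0.10 for Canx. Both libraries lay below WT for 2 genes, Dnajb11 and Manf, against 23.2% of all genes. edgeR, DESeq2 and limma on FPKM called none of the 10, and 1 of them, Dnajb11, had an unadjusted edgeR p under 0.05 (0.0308). Without WT replicate 2 only 3 of the 10 had a negative change.

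In ACreb3l2/AXBP1 both libraries lay below WT for 8 of the 10 genes, all but Calr and Sdf2l1, against 28.7% of all genes. The number of calls depended on single libraries, and the share of all genes called moved the same way. No member was called without ACreb3l2/AXBP1 replicate 2, where 1.39% of all genes were. The count was 1 without WT replicate 2 (2.26% of all genes), in the fit of WT and ACreb3l2/AXBP1 alone (4.21%), and without AXBP1 replicate 1 (5.38%) or 2 (5.36%). It was 7 without ACreb3l2/AXBP1 replicate 1 (13.2% of all genes) and 5 without WT replicate 1 (12.9%) or with DESeq2 (13.3%).

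**Figure D5:**
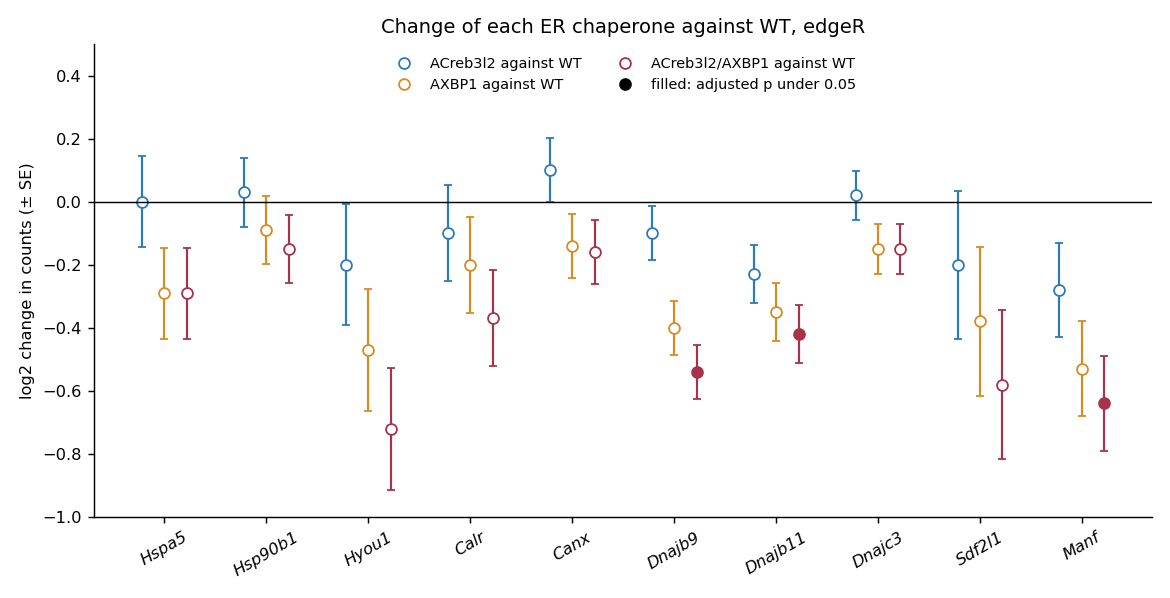
The log2 change of each gene against WT in the 3 transgenic groups (vertical axis), with the SE as a bar and filled points where the edgeR adjusted p was under 0.05. The filled points are Dnajb9 at -0.54, Dnajb11 at -0.42 and Manf at -0.64, all in ACreb3l2/AXBP1.

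Set directly against AXBP1, ACreb3l2 lobes had a higher estimate for all 10 genes, from 0.10 for Calr to 0.29 for Hspa5 and Dnajb9, with a median of 0.21. Both ACreb3l2 libraries lay above both AXBP1 libraries for 9 genes, all but Hsp90b1, against 21.5% of all genes. None of the 10 passed (0.719% of all genes were called), with 2 at an unadjusted edgeR p under 0.05, and DESeq2 and limma on FPKM also called none. The difference thus had 1 direction and did not reach the threshold for any gene, and the lowest edgeR adjusted p was 0.223, for Dnajb9. Markers of other cells also lay on 1 side in this comparison. Higher were 7 of 7 anterior lobe (median 0.82), 5 of 5 erythroid (0.63) and 6 of 6 macrophage markers (0.17). Lower were 6 of 6 endothelial (-0.47) and 7 of 7 fibroblast and pericyte markers (-0.36). None of these markers was called by edgeR. Their part in the chaperone values was not tested.

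The comparison of ACreb3l2/AXBP1 with ACreb3l2 shares both ACreb3l2 libraries with the one just given. All 10 genes had a lower estimate in ACreb3l2/AXBP1 than in ACreb3l2, from -0.17 for Dnajc3 to -0.52 for Hyou1, and 9 did not overlap (all but Hsp90b1), against 18.6% of all genes. The median of -0.28 was -0.47 without ACreb3l2/AXBP1 replicate 1 and -0.16 without replicate 2. Endothelial (6 of 6, median 0.50) and fibroblast and pericyte markers (7 of 7, 0.30) were higher in this comparison. Melanotrope (5 of 5, -0.28), macrophage (6 of 6, -0.19) and erythroid (5 of 5, -0.65) markers were lower, and edgeR called none of these markers. None passed in edgeR, where 0.0% of all genes did (41 with DESeq2, 3 with limma on FPKM), while 4 of the 10 had an unadjusted p under 0.05. Of the 10, DESeq2 called 1, Dnajb9 (-0.43, adjusted p = 0.0317), and limma on FPKM none.

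In ACreb3l2/AXBP1 against AXBP1 the estimates of the 10 genes ran from -0.25 for Hyou1 to 0.00 for Hspa5 and Dnajc3, with a median of -0.09. That median was -0.20 without ACreb3l2/AXBP1 replicate 1 and 0.03 without replicate 2. Melanotrope markers (5 of 5, median -0.26) were lower here, and pituicyte (5 of 5, 0.19) and anterior lobe (6 of 7, 0.62) markers higher, none called by edgeR. None of the 10 passed with edgeR, DESeq2 or limma on FPKM, none had an unadjusted edgeR p under 0.05, and 0.623% of all genes were called by edgeR. The 95% interval of this difference was -0.18 to 0.17 for Dnajc3, -0.32 to 0.32 for Hspa5, -0.50 to 0.17 for Calr, -0.69 to 0.19 for Hyou1 and -0.76 to 0.35 for Sdf2l1, so a small difference was not shown. With scaling by library size alone 5 of the 10 were below 0.

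The interaction compares the double Tg change with what adding up both single transgene changes would give. It had a median of -0.03 over the 10 genes, on the log2 scale (-0.20 without ACreb3l2/AXBP1 replicate 1 and 0.16 without replicate 2), and ran from -0.11 for Canx to 0.17 for Dnajb11 and Manf. None passed with edgeR (adjusted p of 1.0, 0.0% of all genes called), DESeq2 or limma on FPKM, and none had an unadjusted edgeR p under 0.05. The intervals were wide, for example -0.46 to 0.45 for Hspa5 and -0.31 to 0.23 for Dnajb9, so departures from additive effects of that size were not detectable with 2 libraries per group.

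The counts of the targeted factors could include transgene reads, which cannot be told apart here from those of the endogenous gene. Creb3l2 had 28642 and 28156 normalised counts for WT, 27174 and 26738 for ACreb3l2, 18810 and 22801 for AXBP1 and 21176 and 14024 for the double Tg lobes, where it fell by 0.69 (edgeR adjusted p = 0.0428). Its log2 change in ACreb3l2 was -0.08 (95% interval -0.47 to 0.32, edgeR adjusted p = 0.874). Xbp1, whose product acts on chaperone promoters, had 11860 and 13417 for WT, 9142 and 9192 for ACreb3l2, 12431 and 13831 for AXBP1 and 17615 and 12837 for the double Tg lobes. The log2 change of Xbp1 was 0.06 in AXBP1 (95% interval -0.26 to 0.37) and 0.27 in ACreb3l2/AXBP1 (-0.04 to 0.58), and neither passed (edgeR adjusted p = 0.9 and 0.227). In ACreb3l2 it was -0.46 (-0.78 to -0.15), which did not pass either (edgeR adjusted p = 0.127). Xbp1 was higher by 0.73 in ACreb3l2/AXBP1 than in ACreb3l2 (0.42 to 1.05, edgeR adjusted p = 0.559), where 0.0% of all genes were called. Of 8 sensors and factors of the unfolded protein response, these 2 included, 3 fell in ACreb3l2 (3.04% of all genes called), none was called in AXBP1 (0.0% of all genes, and 5 of the 8 at an unadjusted edgeR p under 0.05), and 6 fell in ACreb3l2/AXBP1 (10.1% of all genes).

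Other folding factors of the ER were counted from a list of 38 genes, of which 37 were tested (Clgn was not). In ACreb3l2 30 of the 37 had a negative log2 change with a median of -0.12, and 3 fell (3.04% of all genes were called). In AXBP1 27 were negative with a median of -0.15 and none was called by edgeR, with 9 at an unadjusted p under 0.05 and 1 called by DESeq2. In ACreb3l2/AXBP1 29 were negative with a median of -0.23, and 5 fell, where 10.1% of all genes were called and 6.99% were called lower.

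The folding factors that fell in ACreb3l2 were not among the 10 chaperones, and their names were Fkbp11, Mogs and Txndc5. Fkbp11, a prolyl isomerase of the secretory pathway, had 583 and 658.9 normalised counts for WT, 253.4 and 257.8 for ACreb3l2, 475.8 and 404.7 for AXBP1 and 238 and 135.6 for the double Tg lobes. It fell by 1.28 on the log2 scale in ACreb3l2 (edgeR adjusted p = 0.0164) and fell by 1.74 in ACreb3l2/AXBP1 (edgeR adjusted p = 0.00317). Mogs, the glucosidase that trims the first glucose from N-glycans before calnexin binds, fell by 0.85 (edgeR adjusted p = 0.0119) and fell by 1.24 (edgeR adjusted p = 0.00207) in the same groups. Txndc5, a protein disulfide isomerase, fell by 0.53 (edgeR adjusted p = 0.0138) and fell by 0.67 (edgeR adjusted p = 0.00317). P4hb, protein disulfide isomerase itself, fell in ACreb3l2/AXBP1 by 0.78 (edgeR adjusted p = 0.00725), and Creld2 fell by 0.53 (edgeR adjusted p = 0.0467), named here because it completes the count. The 3 calls in ACreb3l2 were all lost without WT replicate 2 or without either ACreb3l2 library.

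Chaperones of the cytosol and of mitochondria, a list of 25 genes that were all tested, gave 15 negative changes for ACreb3l2, 22 for AXBP1 and 19 for the double Tg lobes, with medians of -0.05, -0.17 and -0.08. edgeR called none in ACreb3l2 (1 at an unadjusted p under 0.05) or AXBP1 (6 at an unadjusted p under 0.05). In ACreb3l2/AXBP1 it called Hspa9, the mitochondrial Hsp70, which fell by 0.41 (edgeR adjusted p = 0.0256), and this 1 call among 25 genes stood beside 10.1% of all genes called. DESeq2 called 4 genes of the list there, and in 6 other settings none was called. The median of the 10 ER chaperones in AXBP1 was -0.32, and the difference between the lists was not tested.

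Other tested genes were matched by symbol to promoter windows with an ERSE, which gave 11 genes. Of these, 7 had a negative change in each comparison with WT, with medians of -0.07 for ACreb3l2, -0.13 for AXBP1 and -0.31 for the double Tg lobes. Among the 11, edgeR called 3 in ACreb3l2/AXBP1, namely Acacb, Creld2 and Syvn1. They were named after their values were seen and were all lower, as were 6.99% of all genes by the same test. Ero1lb, whose window with an ERSE bears the symbol Ero1b, was missed by this match. Its log2 changes were 0.06 for ACreb3l2, -0.25 for AXBP1 and -0.16 for the double Tg lobes, and edgeR called none of them. The 5 chaperones with an ERSE had medians of 0.02, -0.15 and -0.16 in the same order, and none of them was called. Of the chaperones that fell, Dnajb11 held an ERSE-II and Dnajb9 neither element.

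The genes with the profile closest to the mean of the 10, over the 8 libraries and among 6559 well expressed genes, were Tpra1, Ddost, Psen2, Alg2 and Hspbp1. Their root mean square difference from it was 0.033, 0.049, 0.055, 0.058 and 0.06 on the log2 scale. Their log2 changes against WT lay between -0.17 and -0.05 for ACreb3l2, between -0.31 and -0.21 for AXBP1, and between -0.41 and -0.36 for the double Tg lobes. Of the 10 members, Calr (0.069) and Hspa5 (0.078) stayed closest to that mean, and Hyou1 (0.205) and Manf (0.192) strayed furthest. The mean was made from the members, so their own distances describe spread alone.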

How the data were processed

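The deposited table of counts holds whole reads per Ensembl gene, without normalization. The study's methods give Trimmomatic for trimming, Tophat for alignment to mm10 and HTSeq-count for counting. The submitters' processing notes name HTSeq, DESeq, GRCm38 and mm10. The authors' software list also names STAR and cufflinks, the annotation release and the strand setting are not given in the sources used here, and the labels give ribosomal depletion where the methods text gives a poly(A) kit. The deposited FPKM values are the authors' estimates per gene, with 51 genes summed over loci; their sums per library ran from 587090.4 to 778139.5, so FPKM served for order within a library and as an alternative. Genes with a mean median-ratio normalized count above 20 were tested (15580 genes, 99.9% of counts; the study's limit) in edgeR 4.0.16 (R 4.3.3) by robust quasi-likelihood, with TMM factors of 0.913 to 1.1 and 1 mean per group over all 8 libraries. Normalised counts are counts over TMM-scaled library size at mean depth.

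Groups came from the labels, and no table column was left without a sample. The common biological coefficient of variation was 0.107. Replicates were distinct libraries (chi-square per degree of freedom of 10.7 to 48.5). Between groups of 2 libraries no exact permutation test of a single value can reach 0.05, so none is given, and the AXBP1-bearing libraries were not tested as 1 group against the rest. Alternatives were DESeq2 1.42.0, limma 3.58.1 on log2(FPKM + 0.1) with a mean FPKM above 0.5, no filter, median-ratio factors, library size alone, a replicate block, the compared groups alone, and each library left out. The edgeR script was tested on simulated counts. All 10 members are named; of the ER folding partners and the cytosolic and mitochondrial chaperones, the 4 called genes with the largest change per comparison with WT are named, and the 5 genes with a mean normalised count of at least 1000 nearest to the members' mean profile. Members and lists were chosen with earlier results of these data known. Gene coordinates are GENCODE M21 on mm10, counted from 1, and promoter windows are RefSeq's.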

Additional observations from a re-analysis of the deposited data

Results flagged for a closer look

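In 4 direct comparisons the libraries of one group all lay above the WT mean and those of the other all below it. Canx differed between ACreb3l2 and AXBP1 by 0.24 on the log2 scale (edgeR adjusted p = 0.499) and between ACreb3l2/AXBP1 and ACreb3l2 by -0.26 (edgeR adjusted p = 0.688). Dnajc3 differed between the same pairs of groups by 0.17 (edgeR adjusted p = 0.548) and -0.17 (edgeR adjusted p = 0.688). In each case ACreb3l2 was the higher group, and the edgeR test of the difference did not pass. For Dnajc3 the ACreb3l2 libraries stood at 0.00 and 0.03 above the WT mean and overlapped the WT libraries, so ACreb3l2 is not shown to have moved.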

How the results depend on the processing

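In AXBP1 and ACreb3l2/AXBP1 all estimates of the 10 genes kept their sign against WT, except that with library size alone Hsp90b1 and Dnajc3 in ACreb3l2/AXBP1 stood at 0.01, and that Calr in AXBP1 and Canx in ACreb3l2/AXBP1 reached 0.00 in 1 setting each. That scaling put the median of all genes there at 0.17, against 0.01 with TMM. FPKM in limma put it at -0.16 in AXBP1 against WT, 0.18 in ACreb3l2 against AXBP1, 0.12 in ACreb3l2/AXBP1 against AXBP1 and 0.11 for the interaction. The number of calls did depend on the processing. In ACreb3l2/AXBP1 against WT it was 7 without the filter on low counts (10.9% of all genes called), 5 with DESeq2 (13.3%), 1 in the fit of the compared groups alone (4.21%), and 0 to 7 with single libraries left out (1.39% to 13.2%). In AXBP1 against WT it was 5 without the filter (2.13%) and 2 with DESeq2 (0.507%), and in ACreb3l2/AXBP1 against ACreb3l2 4 (1.74%) and 1 (0.263%). The cause was not tested. Replicate numbers did not pair the libraries (correlations of deviations from -0.197 to 0.0887), and with a replicate block 2 members were called in ACreb3l2/AXBP1, Manf missing (edgeR adjusted p = 0.0521).

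Estimates near 0 changed sign most. In ACreb3l2/AXBP1 against AXBP1 the number below 0 was 5 with library size alone, 4 with FPKM and 4 to 10 with single libraries left out. Hsp90b1, Canx and Dnajb11 stood there at 0.05, 0.08 and 0.04 with library size alone and at 0.09, 0.08 and 0.08 with FPKM. With single libraries left out the ranges were -0.17 to 0.05 for Hsp90b1, -0.38 to 0.02 for Calr, -0.11 to 0.07 for Canx, -0.52 to 0.05 for Sdf2l1 and -0.33 to 0.08 for Manf. For the interaction the number below 0 was 5 with library size alone, 1 with FPKM and 2 to 9 with single libraries left out. With FPKM it was 0.04 for Hsp90b1, 0.03 for Hyou1, 0.01 for Calr, 0.08 for Dnajb9, 0.10 for Dnajc3 and 0.07 for Sdf2l1. With single libraries left out it ran from -0.20 to 0.02 for Hsp90b1, -0.34 to 0.19 for Hyou1, -0.28 to 0.12 for Calr, -0.10 to 0.04 for Dnajb9, -0.34 to 0.27 for Sdf2l1 and -0.04 to 0.36 for Manf. In ACreb3l2 against WT 3 to 8 genes were below 0 with single libraries left out, and the ranges were -0.05 to 0.12 for Hsp90b1, -0.43 to 0.06 for Hyou1, -0.27 to 0.10 for Calr and -0.47 to 0.13 for Sdf2l1. None of these values passed. A group left with 1 library was assumed to vary like the others.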
